A study of Mus musculus with 27 samples.

Results

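The p53 target genes described here are 10 protein-coding genes of the mouse that the transcription factor p53 is known to switch on: Cdkn1a, Mdm2, Ccng1, Eda2r, Phlda3, Trp53inp1, Bax, Zmat3, Sesn2 and Bbc3. They were taken by gene symbol, as a set chosen with earlier results of these data known, so their counts and medians beside those of all genes are a description. All 10 were found by their Ensembl identifiers among the 55414 genes of the count table, and all 10 were among the 14114 genes with enough reads to test. RNA was sequenced from whole liver of 27 female Balb/c mice that were 8 weeks old, in 8 groups with no transgene or deletion. Of the 13 mice given olive oil by intraperitoneal injection, 4 were controls that also received saline by tail vein, 3 received the drug 4-methylumbelliferone (4MU) by gavage at 600 mg/kg a day, and 3 each received lipid nanoparticles with siRNA to luciferase (siLuc-LNP) or to hyaluronan synthase 2 (siHAS2-LNP) by tail vein. The other 14 mice were given carbon tetrachloride (CCl4), a liver toxin that causes fibrosis, in place of oil. They comprised CCl4 alone (2 mice), CCl4 + 4MU (4 mice), CCl4 + siLuc-LNP (4 mice) and CCl4 + siHAS2-LNP (4 mice). The nanoparticles were given at 1 mg/kg and then at 0.5 mg/kg, with 2 injections a week. All treatments lasted 2 weeks, and 4MU and the nanoparticles were started 2 days before the first CCl4. The paper's methods state that 4MU was mixed with carboxymethyl cellulose and that control mice were gavaged with this vehicle. The labels name only the saline for the controls, so whether the sequenced controls were gavaged is not settled. 4MU lowers the synthesis of hyaluronan, and siLuc-LNP has no target in the mouse and controls for the particle.

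p53 is a transcription factor that is kept at a low level by Mdm2, an enzyme that marks it for destruction. When DNA is damaged or the cell is otherwise stressed, p53 is freed from Mdm2, binds to sites made of a pair of like repeats and raises the transcription of genes that halt the cell cycle, repair DNA, change metabolism or kill the cell. In the liver, CCl4 is converted by hepatocytes into radicals that damage membranes and DNA, and the surviving hepatocytes divide to replace the lost tissue.

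To show what a binding site of p53 looks like near these genes, the sequence within 5000 bases of each gene start was searched for the p53 consensus with its repeats side by side. The sequence came from the GRCm39 assembly, which is of another strain than the mice. Both 4-base cores of the 20-base site had to match exactly. The reverse complement of the consensus is the consensus itself, so one pass covered both strands. With at most 1 mismatch outside the cores, matches were found near 3 of the 10 genes and near 175 of the 12717 tested protein-coding genes with an annotated start, or 1.38%. All matches near the 10 genes are shown, and they lie near Cdkn1a, Zmat3 and Ccng1. Each is written 5′ to 3′ on the strand of its gene, and capitals mark the core of each repeat. Positions are those of the centre of the site, counted from the gene start.
Cdkn1a, upstream at position -25: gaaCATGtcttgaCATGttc
Zmat3, in an exon at position 1673: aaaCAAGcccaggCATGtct
Zmat3, upstream at position -4147: gagCAAGtctgggCTTGtta
Ccng1, in an intron at position 375: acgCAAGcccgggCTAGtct
The Cdkn1a match lies at chr17:29309902-29309921 on the plus strand, outside the gene. The first Zmat3 match, at chr3:32418480-32418499 on the minus strand, has 0 mismatches, as have matches near 33 of the 12717 genes (0.259%). The second Zmat3 match is at chr3:32424300-32424319 on the minus strand and the Ccng1 match at chr11:40645763-40645782 on the minus strand, each with 1 mismatch. With 2 mismatches allowed, no further gene of the 10 gained a match, whereas 886 of all genes (6.97%) then had one. These are matches of letters. Binding of p53 was not measured, and nothing follows for the 7 genes whose windows held none.

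The libraries held between 7044386 and 29425937 counted read pairs. The shallowest was mouse 4 of CCl4 + siHAS2-LNP, and the next had 18146198. Levels are given in CPM, the read pairs of a gene relative to the total of its library, scaled between libraries by the trimmed mean of M values (TMM). Marker genes of hepatocytes summed to between 72652 and 175229 CPM in the CCl4 groups and between 121680 and 196260 CPM in the others, and were abundant in every library. Markers of stellate cells summed to between 141 and 756 CPM against 36.0 to 114 CPM, and markers of bile duct cells to between 108 and 692 CPM against 29.4 to 77.0 CPM. With CCl4, 5 of 6 stellate and 5 of 5 duct markers rose in the effect averaged over the 4 arms, while 1 of 6 hepatocyte markers rose and 2 fell. In a whole tissue, fewer cells of one type and less RNA per cell cannot be told apart, and the part that this change in cell types had in the results below was not tested. Has2, the gene targeted by the siRNA, had 0 counts in 25 of the 27 livers and at most 2, so the knockdown could not be checked in these libraries.

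To see how the p53 targets stood in the injured liver, mice with CCl4 were first compared with mice without it. Of the 10 genes, 7 rose in CCl4 mice over controls, and none fell, although Bbc3 did so under other settings given below. Phlda3, Eda2r and Cdkn1a rose most, by 15.7-fold, 18.9-fold and 10.6-fold. Zmat3 rose 3.02-fold, Ccng1 2.35-fold, Mdm2 1.93-fold and Bax 1.53-fold. Of all genes tested, 18.0% were called higher in the same comparison (edgeR quasi-likelihood test, adjusted p under 0.05). The median log2 fold change was 1.09 over the 10 genes and -0.02 over all genes tested.

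**Figure D1:**
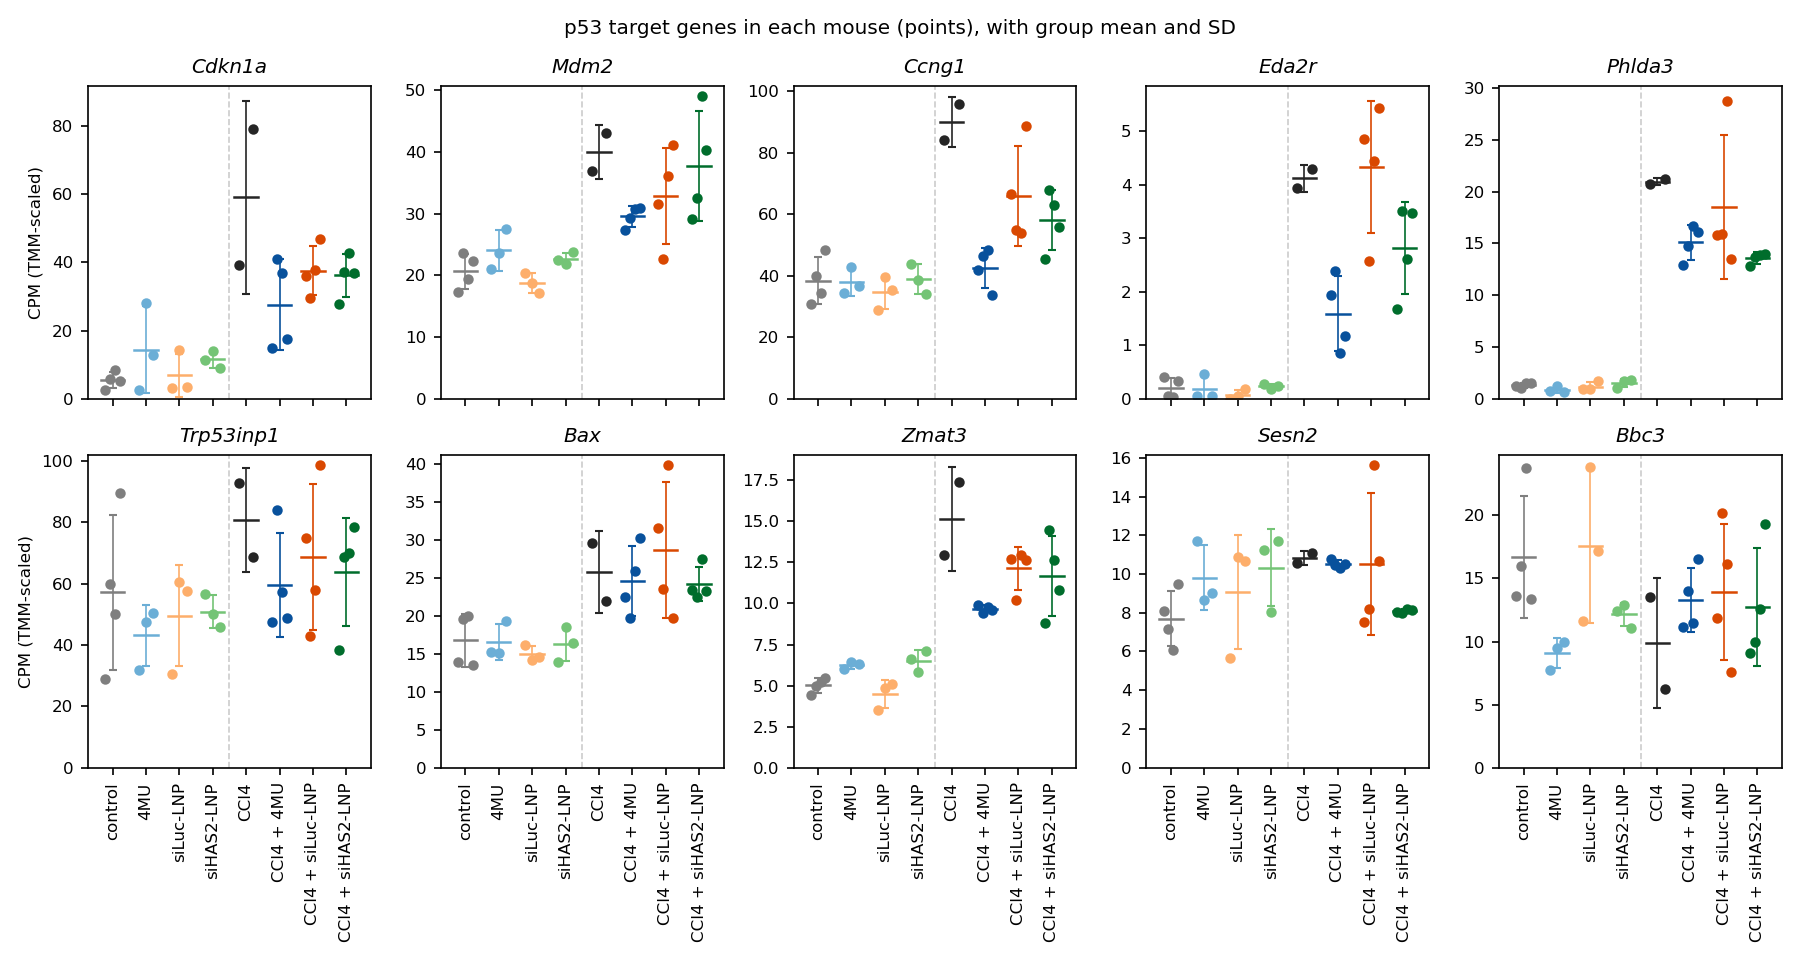
Level of each p53 target gene in every mouse, in TMM-scaled CPM, with the 4 groups without CCl4 left of the dashed line and the 4 groups with CCl4 right of it. Points are mice, and lines and bars are the group mean and SD. For Eda2r, Phlda3 and Zmat3, all 14 mice with CCl4 lie above all 13 without it, whereas for Bbc3 no mouse with CCl4 does.

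In 3 of the 10 genes, Eda2r, Phlda3 and Zmat3, each of the 14 mice with CCl4 had a higher level than each of the 13 mice without it. The same held for 453 of all genes tested, or 3.21%. Eda2r had a mean above the minimum for testing only through the mice with CCl4, so it had to differ and its separation is not support. Nor are its calls or its place in the ranking below. It is included in every count of the 10 genes called higher with CCl4, above and in what follows. The effect of CCl4 averaged over the 4 arms (no drug or siRNA, 4MU, siLuc-LNP and siHAS2-LNP) called 8 of the 10 genes higher, against 26.3% of all genes. The median of this averaged log2 fold change was 0.71 over the 10 genes and -0.02 over all genes. Within single arms the counts were unequal. With 4MU in both groups 4 of the 10 genes rose, against 13.2% of all genes. With siLuc-LNP in both groups 7 rose, against 13%, and with siHAS2-LNP in both groups 6 rose, against 7.74%. The count of the last arm was 4 in 6 of the 7 fits that left out 1 of its mice, the shallow library among them, since Cdkn1a and Ccng1 were then lost. None of the 10 fell in any arm under the reported settings.

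**Figure D2:**
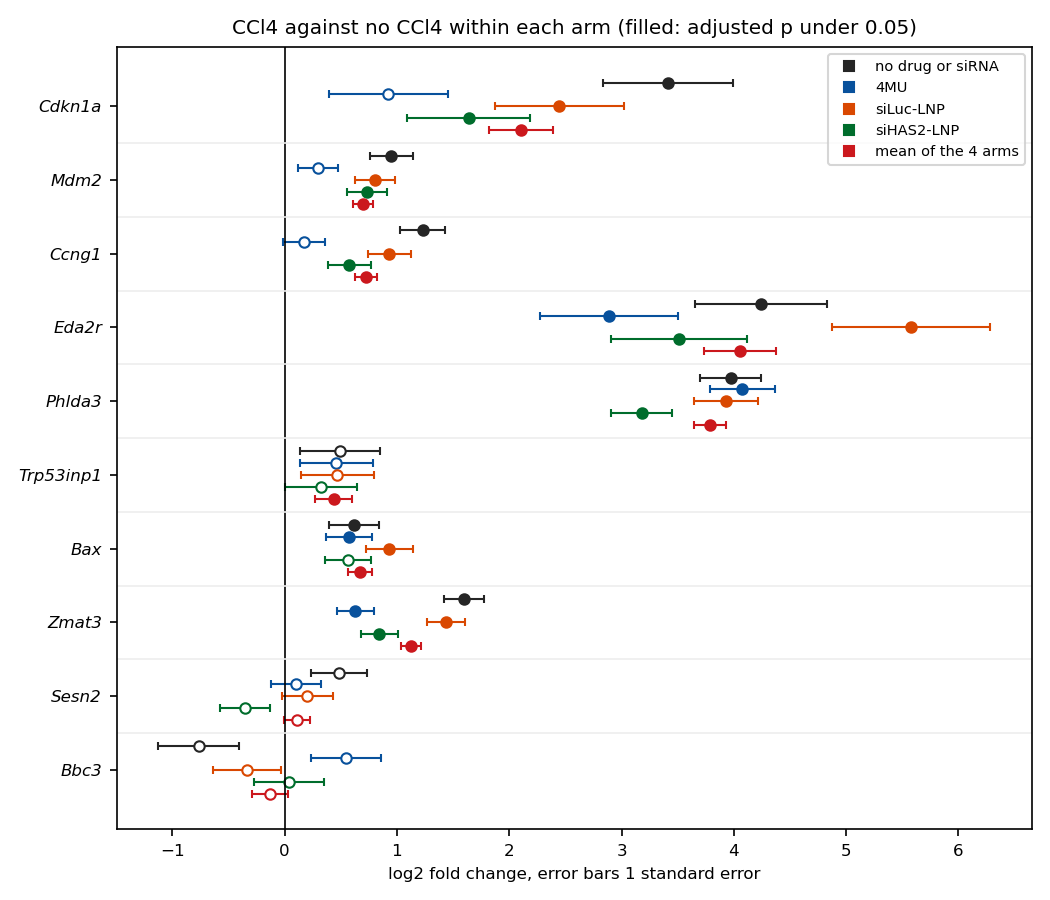
log2 fold change of CCl4 against no CCl4 in each of the 4 arms and averaged over them, for each p53 target gene, with bars of 1 standard error. Filled points passed an adjusted p of 0.05. Phlda3, Eda2r and Zmat3 are filled in every arm, and Cdkn1a, Mdm2 and Ccng1 are open in the 4MU arm, at 0.92, 0.30 and 0.17.

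The first of the genes that halt the cell cycle is Cdkn1a (ENSMUSG00000023067, chr17:29309936-29319701, plus strand), which encodes p21, an inhibitor of the cyclin-dependent kinases. Its level was 2.54, 5.72, 8.53 and 5.31 CPM in the 4 controls and 39.1 and 79.1 CPM in the CCl4 mice. It was 14.9, 40.9, 37.0 and 17.5 CPM in CCl4 + 4MU, 36.0, 29.6, 37.7 and 47.0 CPM in CCl4 + siLuc-LNP, and 27.7, 37.3, 42.8 and 36.9 CPM in CCl4 + siHAS2-LNP. Without CCl4 it was 2.61, 28.0 and 12.7 CPM with 4MU, 3.03, 14.2 and 3.60 CPM with siLuc-LNP, and 11.5, 14.1 and 9.14 CPM with siHAS2-LNP. One 4MU mouse, at 28.0 CPM, therefore overlapped the CCl4 groups, and all other mice without CCl4 lay below every mouse with it. The log2 fold change of CCl4 against control was 3.41 ± 0.58 (SE; edgeR adjusted p = 7.71e-05). It was 2.45 ± 0.57 in the siLuc-LNP arm (adjusted p = 0.00289) and 1.64 ± 0.55 in the siHAS2-LNP arm (adjusted p = 0.0483), a call that was lost when any of 6 of that arm's 7 mice was left out, at adjusted p of up to 0.17, and with filterByExpr (adjusted p = 0.0521) or the size factors of DESeq2 (adjusted p = 0.0507). In the 4MU arm it was 0.92 ± 0.53 and did not pass (adjusted p = 0.217). Without the 4MU mouse at 28.0 CPM the same value was 1.84 (adjusted p = 0.0327).

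Ccng1 (ENSMUSG00000020326, chr11:40639377-40646148, minus strand) encodes cyclin G1, which recruits a phosphatase to Mdm2. Among controls it stood at 30.9, 39.9, 34.3 and 48.5 CPM, and in the CCl4 mice at 84.3 and 95.9 CPM. With CCl4 + 4MU it stood at 41.9, 46.5, 48.4 and 33.8 CPM, all within the range of the controls. The values were 66.6, 54.8, 54.0 and 88.9 CPM in CCl4 + siLuc-LNP and 45.5, 67.9, 63.1 and 56.0 CPM in CCl4 + siHAS2-LNP, and in the 9 mice given 4MU, siLuc-LNP or siHAS2-LNP without CCl4 they lay between 28.9 and 44.0 CPM. One mouse of CCl4 + siLuc-LNP lay between the 2 CCl4 mice, and all other mice lay below both. The log2 fold change of CCl4 was 1.23 ± 0.20 against control (adjusted p = 5.41e-05), 0.93 ± 0.19 in the siLuc-LNP arm (adjusted p = 0.000824) and 0.58 ± 0.19 in the siHAS2-LNP arm (adjusted p = 0.0433). The last call was lost when any 1 of 6 of the 7 mice was left out, with values of 0.48 to 0.68, and without the count filter (adjusted p = 0.0646) or with filterByExpr (adjusted p = 0.0592). In the 4MU arm the value was 0.17 ± 0.19 (adjusted p = 0.543). Exons of Ccng1 and of Nudcd2, on the opposite strand, share 114 bases, and since the strand setting of the counting is not given, reads from those bases could not be assigned.

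Of the genes that feed back on p53, Mdm2 (ENSMUSG00000020184, chr10:117524780-117546730, minus strand) encodes the ubiquitin ligase that p53 itself induces. It was found at 17.3, 23.6, 19.5 and 22.4 CPM in controls and at 36.9 and 43.1 CPM in CCl4 mice, groups that did not overlap. CCl4 against control gave a log2 fold change of 0.95 ± 0.19 (adjusted p = 0.000485), and it was 0.81 ± 0.18 and 0.73 ± 0.18 in the siLuc-LNP and siHAS2-LNP arms (adjusted p = 0.00175 and 0.00739). With 4MU, levels were 21, 23.6 and 27.5 CPM without CCl4 and 27.3, 29.2, 30.8 and 31.0 CPM with it, and the value of 0.30 ± 0.17 did not pass (adjusted p = 0.226). Trp53inp1 (ENSMUSG00000028211, chr4:11156412-11175230, plus strand) encodes a stress protein that acts with p53 in cell death and autophagy. Its mice scattered widely, from 29 to 89.5 CPM in controls and from 38.3 to 98.6 CPM over the 14 mice with CCl4. None of the 4 arms passed, with log2 fold changes of 0.32 to 0.50. Averaged over the arms it was 0.44 ± 0.17 (adjusted p = 0.0297), and this call was lost without 4MU mouse 1 (0.40, adjusted p = 0.0518), CCl4 mouse 1 (0.39, adjusted p = 0.0748), CCl4 + 4MU mouse 2 (0.39, adjusted p = 0.0527) or siLuc-LNP mouse 1 (0.37, adjusted p = 0.0596).

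Phlda3 (ENSMUSG00000041801, chr1:135693809-135697686, plus strand) encodes a small lipid-binding protein that holds back the survival kinase Akt. Its levels were 1.22, 1.00, 1.49 and 1.55 CPM in controls and 20.7 and 21.2 CPM in CCl4 mice. The other mice without CCl4 had 0.658 to 1.79 CPM. The levels with CCl4 were 12.9, 14.8, 16.7 and 16.1 CPM with 4MU, 15.8, 15.9, 28.8 and 13.5 CPM with siLuc-LNP, and 12.8, 13.7, 13.9 and 14 CPM with siHAS2-LNP. The lowest mouse with CCl4, at 12.8 CPM, was far above the highest without it, at 1.79 CPM. The log2 fold changes were 3.97 ± 0.27 against control, 4.07 ± 0.29 in the 4MU arm, 3.93 ± 0.28 in the siLuc-LNP arm and 3.18 ± 0.27 in the siHAS2-LNP arm (adjusted p between 5.64e-10 and 2.49e-08). Phlda3 was one of the rarer of the 10 transcripts without CCl4, at a mean of 0.475 RPKM (CPM divided by the exon length in kilobases), and had 6.37 RPKM with it.

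Among the genes of cell death, Eda2r (ENSMUSG00000034457, chrX:96320270-96420847, minus strand) encodes a receptor of the tumour necrosis factor family that binds ectodysplasin A2. It was the rarest of the 10 per length, at a mean of 0.0241 RPKM without CCl4 and 0.411 RPKM with it. Only 0 to 12 read pairs were counted in each of the 13 mice without CCl4, and 23 to 157 in each of the 14 mice with it. In CPM, the controls had 0.407, 0.0590, 0.0427 and 0.327, and the CCl4 mice 3.94 and 4.29. CCl4 + 4MU gave 1.93, 2.39, 0.849 and 1.17 CPM, CCl4 + siLuc-LNP 4.85, 2.58, 4.44 and 5.44 CPM, and CCl4 + siHAS2-LNP 1.68, 3.51, 2.61 and 3.47 CPM. CCl4 + 4MU thus held the lowest levels with CCl4, but even its lowest mouse was above the highest mouse without CCl4, at 0.468 CPM. On the log2 scale the change was 4.24 ± 0.59 against control (adjusted p = 6.13e-06), 2.89 ± 0.61 in the 4MU arm (adjusted p = 0.0013) and 3.51 ± 0.61 in the siHAS2-LNP arm (adjusted p = 0.00033). The value of 5.58 ± 0.71 in the siLuc-LNP arm (adjusted p = 2.91e-06) is measured against 3 mice with 0, 1 and 4 read pairs, so its size depends on how such low counts are handled.

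Bax (ENSMUSG00000003873, chr7:45111015-45116325, minus strand) encodes a protein of the BCL-2 family that opens the outer membrane of mitochondria. It was the most abundant of the 10 per length, at a mean of 8.71 RPKM without CCl4 and 13.9 RPKM with it. Controls had 13.9, 19.5, 19.9 and 13.6 CPM and CCl4 mice 29.5 and 21.9 CPM. Over all arms, 12 of the 14 mice with CCl4 lay above every mouse without it, and the increases were small. On the log2 scale the change was 0.62 ± 0.22 against control (adjusted p = 0.0346), 0.57 ± 0.20 in the 4MU arm (adjusted p = 0.0423), 0.93 ± 0.21 in the siLuc-LNP arm (adjusted p = 0.00177) and 0.57 ± 0.20 in the siHAS2-LNP arm, where it did not pass (adjusted p = 0.0678). The call against control was lost without control mouse 1 or 4 or CCl4 mouse 1, the last at 0.40 (adjusted p = 0.302), and with only the compared groups (adjusted p = 0.0509). The call in the 4MU arm was lost without 4MU mouse 1 or 2 or CCl4 + 4MU mouse 1, 3 or 4, at 0.46 to 0.61 (adjusted p = 0.0501 to 0.14). Bbc3 (ENSMUSG00000002083, chr7:16042318-16052130, plus strand) encodes PUMA, which sets proteins such as BAX free to act. It went another way: 13.6, 16.0, 23.7 and 13.4 CPM in controls and 13.5 and 6.21 CPM in CCl4 mice. The log2 fold change of -0.77 ± 0.36 did not pass (adjusted p = 0.102), but it did without the count filter (-0.76, adjusted p = 0.0264) and without CCl4 mouse 1 (-1.41, adjusted p = 0.0254). In the 4MU, siLuc-LNP and siHAS2-LNP arms it was 0.55, -0.33 and 0.04, and no mouse with CCl4 stood above all mice without it. Within the 4MU arm alone the groups did not overlap, at 11.1 to 16.5 CPM with CCl4 and 7.73 to 9.97 CPM without it. The value there did not pass (edgeR adjusted p = 0.211).

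Zmat3 (ENSMUSG00000027663, chr3:32388941-32420163, minus strand) encodes a zinc finger protein that binds RNA and guides splicing. It had 4.42, 4.95, 5.25 and 5.43 CPM in controls and 12.9 and 17.4 CPM in CCl4 mice. With CCl4, levels were 9.89, 9.41, 9.78 and 9.60 CPM with 4MU, 12.7, 10.2, 13 and 12.7 CPM with siLuc-LNP, and 8.80, 14.5, 12.7 and 10.8 CPM with siHAS2-LNP. The 4 mice of CCl4 + 4MU were nearly alike, and they and every other mouse with CCl4 were above the highest mouse without it, at 7.11 CPM. For CCl4, the log2 fold change was 1.59 ± 0.18 against control (adjusted p = 2.16e-07), 0.63 ± 0.16 in the 4MU arm (adjusted p = 0.00717), 1.44 ± 0.17 in the siLuc-LNP arm (adjusted p = 1.21e-06) and 0.84 ± 0.17 in the siHAS2-LNP arm (adjusted p = 0.00122). Sesn2 (ENSMUSG00000028893, chr4:132219335-132237815, minus strand) encodes sestrin 2, a sensor of leucine and oxidative stress that restrains the growth kinase complex mTORC1. Its levels in the controls, 8.08, 7.14, 6.10 and 9.48 CPM, lay below the 10.5 and 11.1 CPM of the CCl4 mice, but the log2 fold change of 0.49 ± 0.25 did not pass (adjusted p = 0.132). In the 4MU, siLuc-LNP and siHAS2-LNP arms it was 0.10, 0.20 and -0.35. The 4 mice of CCl4 + siHAS2-LNP, at 8.02, 8.0, 8.18 and 8.14 CPM, all lay below the CCl4 mice (log2 fold change -0.42 ± 0.25, adjusted p = 0.27).

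Per length of exon, the order of the 10 genes changed between livers without and with CCl4. Bax, Ccng1 and Trp53inp1 were the highest in both, at means of 8.71, 8.54 and 6.91 RPKM without CCl4 and 13.9, 13.8 and 9.04 RPKM with it. Without CCl4, Bbc3 (2.94 RPKM), Mdm2 (2.79 RPKM) and Sesn2 (2.01 RPKM) came next, ahead of Cdkn1a (1.54 RPKM). With CCl4, Phlda3 (6.37 RPKM) and Cdkn1a (6.19 RPKM) stood above Mdm2 (4.46 RPKM), Bbc3 (2.68 RPKM) and Sesn2 (2.17 RPKM). Among 14114 tested genes ranked by the averaged log2 fold change from the highest down, Eda2r was at place 112, Phlda3 at 140, Cdkn1a at 396 and Zmat3 at 984, whereas Sesn2 was at 5411 and Bbc3 at 8633.

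To find out whether the treatments moved the p53 targets in the injured liver, each treated CCl4 group was compared with the CCl4 mice. The 3 comparisons share the same 2 CCl4 mice. Ccng1 and Zmat3 fell with 4MU, by 1.08 ± 0.20 (adjusted p = 0.0014) and 0.65 ± 0.18 (adjusted p = 0.0136) on the log2 scale, or 2.11-fold and 1.57-fold. These 2 of the 10 genes compare with 10% of all genes called lower. The median log2 fold change was -0.45 over the 10 genes and 0.04 over all genes. All 4 treated mice lay below both CCl4 mice in Ccng1, Zmat3, Eda2r, Mdm2 and Phlda3. This pattern was not counted over all genes, so it is a description and not support for a fall. Of these, Eda2r had a log2 fold change of -1.39 ± 0.50 (adjusted p = 0.0547), Phlda3 of -0.47 ± 0.25 (adjusted p = 0.187) and Mdm2 of -0.43 ± 0.19 (adjusted p = 0.113), and none of the 3 passed. Eda2r did pass with DESeq2 (adjusted p = 0.0235), with its size factors (adjusted p = 0.0493), without the count filter (adjusted p = 0.012), with only the compared groups (adjusted p = 0.0498) and without CCl4 + 4MU mouse 2 (adjusted p = 0.0374). Cdkn1a, with a pair of treated mice near the lower CCl4 mouse, had -1.10 ± 0.56 (adjusted p = 0.169) and passed without the count filter (adjusted p = 0.0032), and Mdm2 passed with the replicate number as a block (-0.56, adjusted p = 0.0424). The call of Ccng1 held whichever mouse was left out. That of Zmat3 was lost without CCl4 mouse 2 (-0.45, adjusted p = 0.271) and without the count filter (adjusted p = 0.0641). The hepatocyte markers moved in this comparison too, with 3 of 6 higher, at sums of 145859 to 175229 CPM against 72652 and 127552 CPM. Stellate markers summed to 141 to 413 CPM against 402 and 656 CPM, and duct markers to 108 to 268 CPM against 241 and 297 CPM. These sums overlapped, and none of the 6 stellate or 5 duct markers passed in either direction. The part of these cells in the result was not tested.

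**Figure D3:**
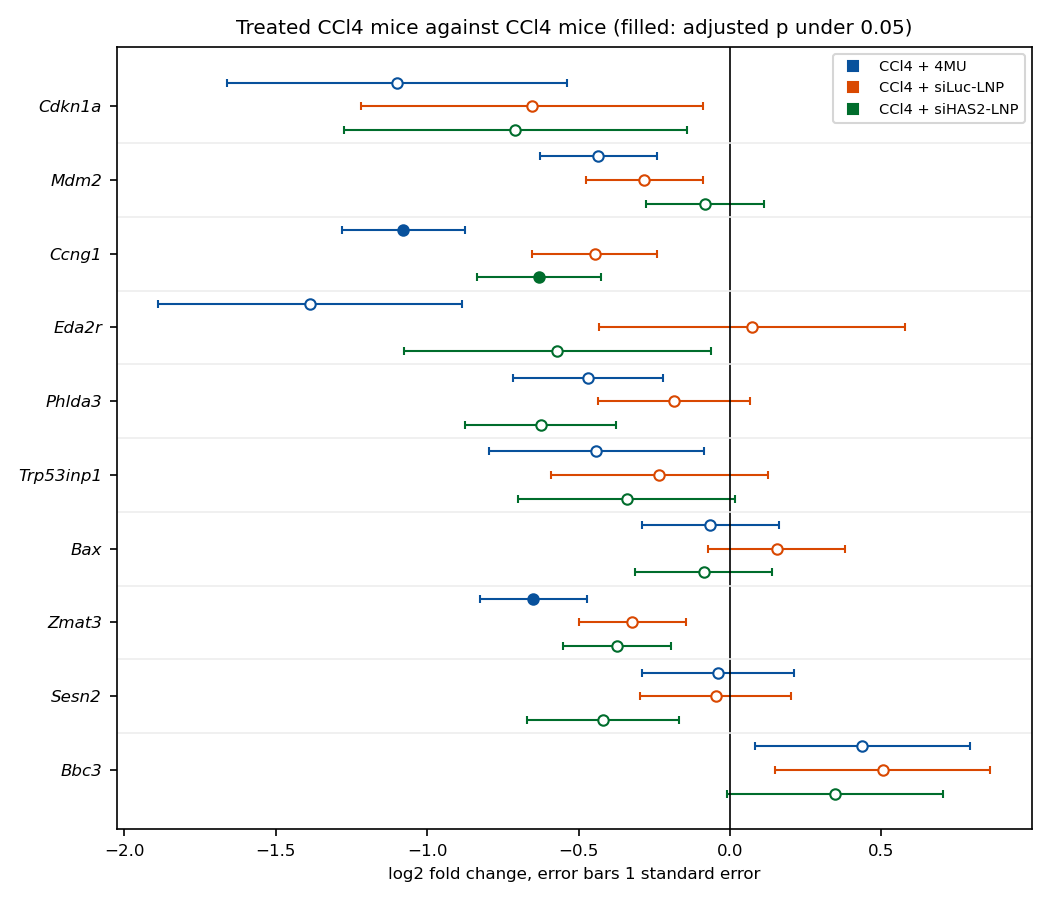
log2 fold change of each p53 target gene in the 3 treated CCl4 groups against the same 2 CCl4 mice, with bars of 1 standard error. Filled points passed an adjusted p of 0.05: Ccng1 with 4MU (-1.08) and with siHAS2-LNP (-0.63), and Zmat3 with 4MU (-0.65).

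With siHAS2-LNP 1 of the 10 genes fell in CCl4 mice, Ccng1, by 0.63 ± 0.21 on the log2 scale (adjusted p = 0.0404), against 7.33% of all genes called lower. This call was lost in 5 of the 6 fits that left out 1 mouse, with CCl4 mouse 1 (-0.73, adjusted p = 0.0653), CCl4 mouse 2 (-0.57, adjusted p = 0.28), or mouse 1 (-0.53, adjusted p = 0.0992), 3 (-0.68, adjusted p = 0.0562) or 4 (-0.62, adjusted p = 0.0738) of CCl4 + siHAS2-LNP removed. Phlda3 had -0.63 ± 0.25 (adjusted p = 0.0921), with all 4 treated mice below both CCl4 mice, a pattern not counted over all genes here either. siLuc-LNP gave 0 calls against CCl4 (edgeR, with 1 at an unadjusted p under 0.05, and 0 with DESeq2), where 0.191% of all genes were called lower. Ccng1 was the 1, at -0.45 ± 0.21 (adjusted p = 0.331). The direct comparison of the siRNAs, CCl4 + siHAS2-LNP against CCl4 + siLuc-LNP, also gave 0 calls with edgeR (1 at an unadjusted p under 0.05, Phlda3 at -0.44 ± 0.21 with an adjusted p of 0.291) and 0 with DESeq2, where 0.305% of all genes were called lower. The effect of siHAS2-LNP on Ccng1 was therefore not distinguishable from that of the particle with siLuc, with a log2 difference between them of -0.19 ± 0.17 (adjusted p = 0.648).

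Whether CCl4 raised the genes by different amounts with and without a treatment was tested with an interaction term. With 4MU, the CCl4 effect was smaller in 2 genes, Zmat3 by 0.97 ± 0.24 (adjusted p = 0.0293) and Ccng1 by 1.06 ± 0.28 (adjusted p = 0.0319) on the log2 scale. Of all genes, 5.67% were called in either direction. Cdkn1a had the most negative value, -2.49 ± 0.77, and stood just outside the threshold (adjusted p = 0.055). It passed with DESeq2 (adjusted p = 0.0476), without the count filter (adjusted p = 1.01e-06), and without control mouse 3, 4MU mouse 1, CCl4 mouse 1 or CCl4 + 4MU mouse 3 (adjusted p = 0.0228 to 0.0482). The calls of Zmat3 and Ccng1 were both lost without control mouse 1, 4MU mouse 2 or 3, CCl4 mouse 2, or CCl4 + 4MU mouse 1 or 4. In those fits Ccng1 ranged from -0.96 to -1.08 and Zmat3 from -0.76 to -0.98, and the adjusted p reached 0.198. That of Zmat3 was also lost without the count filter (-0.95, adjusted p = 0.0629). With siLuc-LNP the interaction gave 0 calls with edgeR (0 at an unadjusted p under 0.05) and 0 with DESeq2, where 0.00709% of all genes were called. With siHAS2-LNP it gave 0 calls with edgeR (1 unadjusted, Zmat3 at -0.59 ± 0.23 with an adjusted p of 0.324) and 0 with DESeq2, where 0.0354% were called.

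In mice without CCl4, none of the 10 genes passed with 4MU or siLuc-LNP against control, or with siHAS2-LNP against siLuc-LNP, under the reported settings. siHAS2-LNP was not tested against control. 4MU gave 0 calls against control with edgeR (2 at an unadjusted p under 0.05) and 0 with DESeq2, and 0.00709% of all genes were called. The 2 were Bbc3, at 7.73, 9.52 and 9.97 CPM and below all 4 controls (log2 fold change -0.88 ± 0.31, adjusted p = 0.492), and Cdkn1a, which was high in 1 of the 3 mice (1.39 ± 0.54, adjusted p = 0.566). siLuc-LNP against control gave 0 calls (0 unadjusted, and 0 with DESeq2), against 0.213% of all genes. siHAS2-LNP against siLuc-LNP gave 0 calls (1 unadjusted, Zmat3 at 0.54 ± 0.18 with an adjusted p of 0.311, and 0 with DESeq2), against 0.0425% of all genes.

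Genes that act on p53 were then taken as a list, as background to the 10. The p53 gene Trp53 had between 15.7 and 27.4 CPM with CCl4 and between 15.6 and 22.8 CPM without it, and its averaged log2 fold change was -0.01 (adjusted p = 0.938). Mdm4, the partner of Mdm2 that blocks p53, had an averaged value of -0.09 (adjusted p = 0.473), but it rose in the siHAS2-LNP arm by 0.62 ± 0.19 (adjusted p = 0.0357). Its levels there were 32.3 to 43.2 CPM without CCl4 and 44.2 to 78.3 CPM with it. Against the CCl4 mice, at 28.6 and 35.9 CPM, it was 0.81 ± 0.22 higher in CCl4 + siHAS2-LNP (adjusted p = 0.0181). Without mouse 3 of CCl4 + siHAS2-LNP these values were 0.42 (adjusted p = 0.167) and 0.61 (adjusted p = 0.0676). The first was also lost without siHAS2-LNP mouse 1 (0.59, adjusted p = 0.113) or 3 (0.52, adjusted p = 0.171) and the second without CCl4 mouse 2 (0.63, adjusted p = 0.288). In the other arms Mdm4 had -0.32, -0.42 and -0.23, and none passed. Its levels in CCl4 + siLuc-LNP, which controls for the particle, were 25.4 to 39.7 CPM, below every mouse of CCl4 + siHAS2-LNP. Of the 14 tested members of a list of p53 and its regulators, 6 rose with CCl4 in the averaged effect and none fell, with a median of 0.12, where 26.3% of all genes were called higher and 25.6% lower. They included the checkpoint kinases Chek1 (2.67) and Chek2 (1.5) and the damage-sensing kinases Atm (0.68) and Atr (0.61). Within single arms, Atm and Atr passed only against control (edgeR adjusted p = 0.0096 and 0.000738). Chek2 passed against control and with siLuc-LNP but not with 4MU (adjusted p = 0.112) or siHAS2-LNP (adjusted p = 0.261). Chek1 passed in every arm but that of siHAS2-LNP (adjusted p = 0.0555). In CCl4 + 4MU against CCl4, where 10% of all genes were called lower and 8.28% higher, 4 of the 14 fell, among them Chek1 (-2.77 ± 0.49, adjusted p = 0.000986), Chek2 (-1.54 ± 0.44, adjusted p = 0.0181) and Atr (-0.83 ± 0.23, adjusted p = 0.0163).

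A further 38 p53 targets were taken as a list, of which 18 rose, 6 fell and 14 did not pass, with a median averaged log2 fold change of 0.14, against 26.3% of all genes higher and 25.6% lower. The largest rises were those of Ckap2 (5.52), Psrc1 (4.91) and Gtse1 (3.92), which act on microtubules or in the G2 phase of dividing cells, and of the death receptor gene Tnfrsf10b (2.89). Psrc1 had 0 to 0.358 CPM without CCl4, near or below the limit of 3 counts, and was tested only because of its level with CCl4. Its rise is therefore not support, although it is counted among the 18, and the size of that rise depends on how such low counts are handled. Ckap2 ranged from 5.47 to 49.2 CPM with CCl4 and from 0 to 2.63 CPM without it. With 4MU in CCl4 mice, 10 of the 38 fell and 4 rose, with a median of -0.09, against 10% of all genes lower and 8.28% higher. Tnfrsf10b fell by 1.32 ± 0.34 (adjusted p = 0.00963) and Gtse1 by 1.60 ± 0.36 (adjusted p = 0.00446).

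The genes of cell division that p53 is known to hold down through p21 were higher with CCl4, as was Cdkn1a. All 20 tested genes of this list rose, against 26.3% of all genes, with a median averaged log2 fold change of 4.30. Cdc25c (5.73), Ccnb1 (5.62), Cdc20 (5.43) and Ccnb2 (5.41), which drive entry into and exit from mitosis, had the largest fitted values. Cdc25c, at 0 to 0.305 CPM without CCl4, was near or below the limit of 3 counts in those mice and was tested only because of its level with CCl4. Its rise is therefore not support, although it is counted among the 20, and the size of that rise depends on how such low counts are handled. Ccnb1 had 5.72 to 52.1 CPM with CCl4 and 0 to 2.39 CPM without it. In CCl4 + 4MU against CCl4, 19 of the 20 fell, against 10% of all genes, with a median of -1.91, and the exception, Ccnb2, had -0.38 ± 0.39 (adjusted p = 0.52). With siHAS2-LNP 9 of the 20 fell against CCl4 (median -1.26), where 7.33% of all genes were called lower, and with siLuc-LNP none passed (median -0.58), where 0.191% were. A list of G1 cyclins, cyclin-dependent kinases and their other inhibitors also held Pcna, which is none of these. Of its 13 tested genes, 10 rose with CCl4 and none fell, with a median of 0.71, against 26.3% of all genes higher and 25.6% lower. The rises were led by Ccne1 (2.94), Cdkn2c (1.62), Ccne2 (1.45) and Pcna (1.14). With 4MU in CCl4 mice, 8 of the 13 fell (median -0.77), against 10% of all genes, including Pcna by 2.02 ± 0.29 (adjusted p = 0.000523) and Cdkn2c, an inhibitor of cyclin-dependent kinases like Cdkn1a, by 1.18 ± 0.20 (adjusted p = 0.000721).

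**Figure D4:**
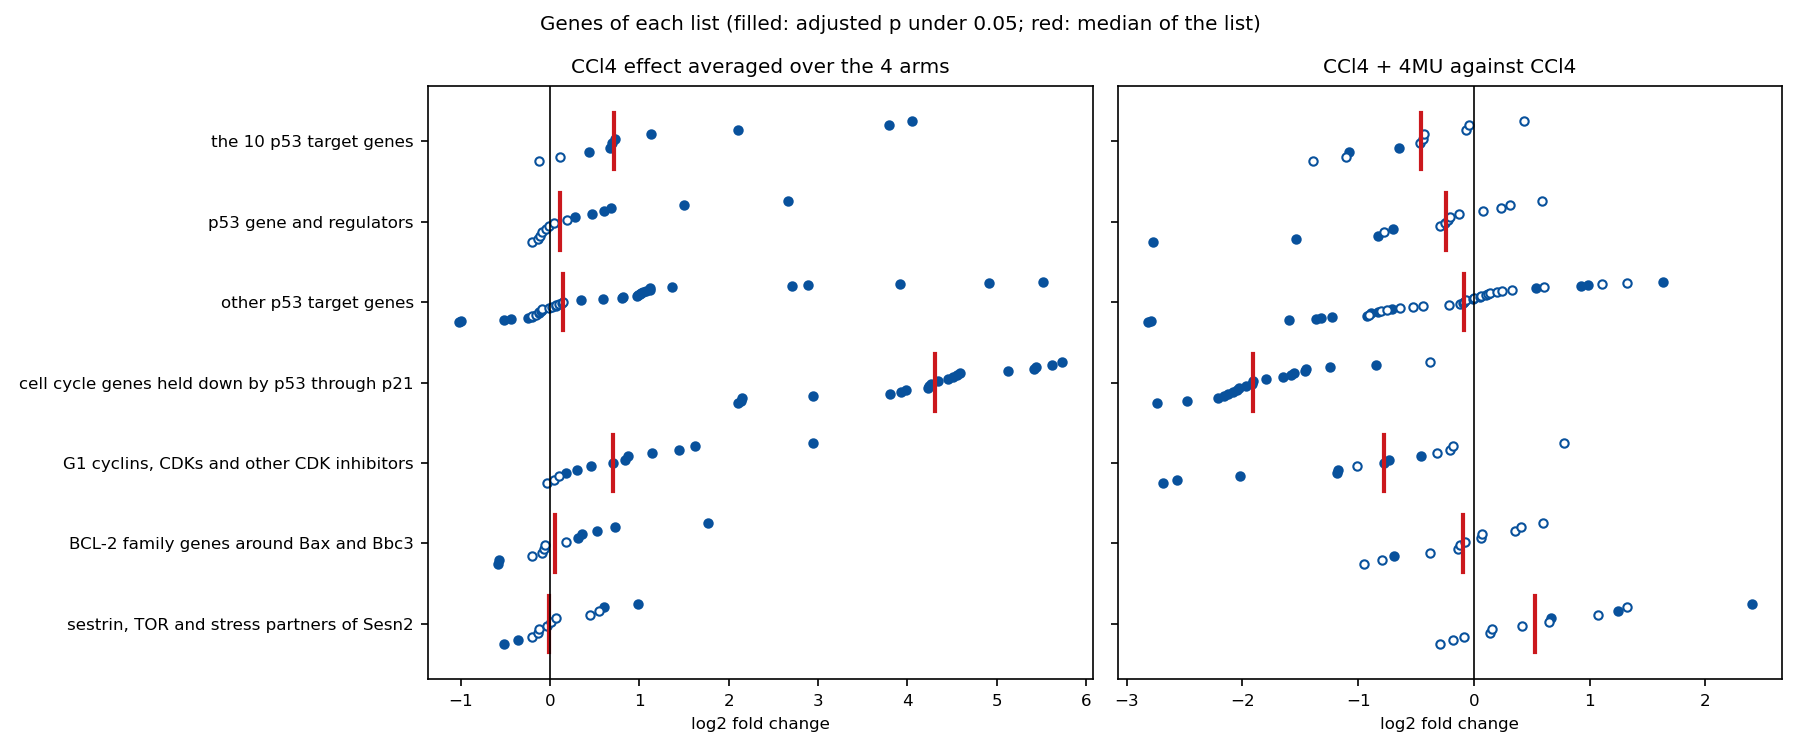
log2 fold change of each tested gene in 7 lists, for the CCl4 effect averaged over the 4 arms (left) and for CCl4 + 4MU against CCl4 (right). Filled points passed an adjusted p of 0.05, and red lines are medians. The cell cycle genes have a median of 4.30 on the left and -1.91 on the right, and the 10 p53 target genes of 0.71 and -0.45.

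The death and metabolic members have relatives of their own. Of 12 tested BCL-2 family genes other than Bax and Bbc3, 5 rose and 2 fell with CCl4, with a median of 0.06, against 26.3% of all genes higher and 25.6% lower. Bcl2a1b (1.77), which protects from death, and Bok (0.73), which promotes it, rose, whereas the death-promoting Bmf (-0.58) and Bik (-0.57) fell. Bcl2a1b, at 0.102 to 1.26 CPM without CCl4, was tested only because of its level with CCl4, so its rise is not support. Within single arms, Bmf passed only with siLuc-LNP (-1.67, edgeR adjusted p = 0.00415). It had -0.08 against control, 0.34 with 4MU and -0.90 with siHAS2-LNP. Bik passed in no single arm, with -0.95 against control, -0.24 with 4MU, -0.99 with siLuc-LNP and -0.08 with siHAS2-LNP. In CCl4 + 4MU against CCl4, 1 of the 12 fell, against 10% of all genes, Bok by 0.69 ± 0.21 (adjusted p = 0.0224). Of 12 partners of Sesn2 in the sestrin, mTOR and stress pathways, 2 rose and 2 fell with CCl4, with a median of -0.01, both shares below the 26.3% and 25.6% of all genes. Ddit4 (0.99), an inhibitor of mTORC1, and Nfe2l2 (0.61), the regulator of the antioxidant response, rose, and Nprl2 (-0.51) and Atf4 (-0.36) fell. Within single arms, Ddit4 passed only with 4MU (2.22, edgeR adjusted p = 0.0014). It had -0.47 against control (adjusted p = 0.502), 1.06 with siLuc-LNP and 1.13 with siHAS2-LNP. Atf4 passed in no single arm, with values from -0.46 with 4MU to -0.24 against control. With 4MU in CCl4 mice 3 of these 12 rose, against 8.28% of all genes, and the median was 0.53.

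To see whether the 10 genes varied together from mouse to mouse, the deviation of each mouse from its group mean in log2 CPM was correlated between genes over the 27 mice. These values share their libraries and are given as a description. Over the 45 pairs of genes, Pearson's r ranged from -0.47 (Eda2r and Bax) to 0.80 (Ccng1 and Trp53inp1), with a median of 0.22, and 13 pairs were below 0. Ccng1 with Zmat3 (0.58) and Cdkn1a with Trp53inp1 (0.55) and Ccng1 (0.54) were among the 6 pairs above 0.5. Mouse 1 of CCl4 + siHAS2-LNP was below its group mean in all 10 genes. Outside the 10, the genes whose deviations followed Cdkn1a most closely were S100a10 (r = 0.80), Ciao2a (0.79), Npas2 (0.78), Rbm48 (0.78) and Cry1 (0.78), all over 27 mice. Npas2 and Cry1 encode proteins of the circadian clock.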

How the data were processed

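Reads of polyA RNA were trimmed by the authors with Trimmomatic 0.39, aligned with HISAT2 (version not given in the sources used here) to GRCm39. They assigned the pairs to genes with featureCounts and left out multimapping reads. The strand setting is not given in the sources used here. The deposited values are raw counts per gene, unnormalised and unfiltered. Of 55414 genes, 54749 matched GENCODE vM39. Those averaging 10 counts or more over the libraries were fitted with edgeR 4.0.16 (R 4.3.3; TMM, quasi-likelihood test, all 8 groups in 1 fit), and p-values were adjusted over all 14114 genes by Benjamini-Hochberg with a threshold of 0.05. Standard errors were derived from the F statistic. CPM and RPKM used TMM-scaled library sizes. A count limit of 3 corresponds to 0.102 to 0.426 CPM per library and covers counting error only. The alternatives were DESeq2 1.42.0, its size factors, no count filter, filterByExpr, the replicate number as block, only the compared groups, and leaving out each mouse. Code was tested on simulated data. The 10 genes, the lists and the markers were chosen with earlier results of these data known. Of each list the text names up to 4 genes, those with the largest averaged CCl4 effect past the threshold, as well as Trp53 and Mdm4. Nothing in the labels says how mice were distributed over cages, days or sequencing runs, so batches were not analysed here.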

Additional observations from a re-analysis of the deposited data

Results flagged for a closer look

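In groups of 4 mice, the gap between an end mouse and its neighbour was compared with the whole range of the group (Dixon's test at the 95% limit). This picked out 2 of 40 combinations of gene and group, and chance gives about 5%. Phlda3 in mouse 3 of CCl4 + siLuc-LNP was high, at 28.8 CPM against 13.5 to 15.9 CPM in the others (ratio 0.840). Zmat3 in mouse 2 of the same group was low, at 10.2 CPM against 12.7 to 13 CPM (ratio 0.897). The CCl4 effect differed between mice with and without 4MU in Ccng1 (interaction -1.06 on the log2 scale) and in Zmat3 (-0.97), by edgeR's test of the interaction itself (adjusted p = 0.0319 and 0.0293). No explanation was tested for these values.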

How the results depend on the processing

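Fold changes under alternatives were compared for the 10 genes in the CCl4 effect of each arm, its average, and CCl4 + 4MU against CCl4. They were also compared for Cdkn1a, Ccng1, Eda2r, Phlda3 and Zmat3 in CCl4 + siHAS2-LNP against CCl4. In the interaction with 4MU, only Cdkn1a, Ccng1 and Zmat3 were included, and the remaining comparisons were left out. Of these values, 1001 kept their direction and their side of the threshold, 50 lost significance, 20 gained it and 6 changed sign. Of the 15 counts of genes called, 7 were the same under every alternative, 6 of them at 0. Without the count filter, 2 genes were called in 4MU against control in place of 0. In CCl4 + siHAS2-LNP against CCl4, 2 in place of 1 were called with only the compared groups and with the replicate block. Same-numbered mice did not deviate together (correlations of -0.32 to 0.206), so the numbers are not taken as pairs, and the replicate block changed no other count by over 1.5 times. In CCl4 + 4MU against CCl4, 5 of the 6 alternatives that keep every mouse called 3 genes in place of 2, Mdm2 among them with the replicate block (-0.56, adjusted p = 0.0424). In the siHAS2-LNP arm such alternatives called 4 to 7 in place of 6. Leaving out 1 mouse gave 1 to 3 calls in CCl4 + 4MU against CCl4, 0 to 1 in CCl4 + siHAS2-LNP against CCl4, 0 to 4 in the interaction with 4MU, 4 to 6 in the siHAS2-LNP arm and 3 to 4 in the 4MU arm. Among the fold changes compared, changes of sign came only from leaving out a mouse: Bax (-0.29 to 0.15) and Bbc3 (-0.053 to 1.08) in CCl4 + 4MU against CCl4, Bbc3 in the siHAS2-LNP arm (-0.20 to 0.17) and Sesn2 in the siLuc-LNP arm (-0.043 to 0.35). The cause was not tested. Mdm4, checked after its values were seen, lost its call in the siHAS2-LNP arm with the replicate block (0.61, adjusted p = 0.0656). Against CCl4, every comparison rests on 2 mice. Eda2r is limited by counts of 0 to 12 per library without CCl4, and the lone library left in a group is assumed to vary like the others.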
